A study of Homo sapiens with 12 samples.

Results

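The 41 genes described here encode the Slit, netrin and ephrin guidance cues and their receptors: *SLIT1* to *SLIT3*, *ROBO1* to *ROBO4*, the netrins and netrin-Gs, *DCC*, *NEO1*, the *UNC5* genes, the Eph receptors and the ephrins. They make up 41 of the 26485 genes in the count table. The choice was by gene symbol, with a rule that used none of their values, but earlier results of these data were known. The study's own pathway analysis had already reported axon guidance and extension as overrepresented. Poly(A) RNA was sequenced from HEK293, an established human embryonic kidney cell line with WT genotype, 48 hr after transient transfection. There were 12 libraries, 3 replicates for each of 4 constructs. These were PEG10 gag-pol, PEG10 gag, the nucleocapsid fragment of PEG10 (NC) and a control, which the sample labels name LifeAct-Dendra2, an actin-binding peptide with a fluorescent protein. The study's methods name the control of its pathway analysis pCDNA, and its list of constructs places a LifeAct construct in a pCDNA plasmid. PEG10 is a protein encoded by a domesticated retrotransposon, whose gag-pol form is made by a ribosomal frameshift at the end of gag, and NC is the last stretch of gag. The study describes its tagged PEG10 plasmids as driven by a CMV promoter, and no sorting of transfected cells is described for these libraries. It asked whether the released nucleocapsid alters gene expression.

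Slits are secreted proteins that bind Robo receptors and repel growing axons and migrating cells. Netrins are secreted cues that attract through DCC and neogenin and repel through UNC5 receptors, which also act as dependence receptors. Eph receptors are receptor tyrosine kinases that bind ephrins on neighboring cells, mainly GPI-anchored ephrin-As for EphA and transmembrane ephrin-Bs for EphB receptors, and signal in both the receptor-bearing and the ephrin-bearing cell. All of these families act outside the nervous system too, for example in kidney, vessel and epithelial development.

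Libraries held 30625725 to 45316749 counts on genes. *PEG10*, endogenous and transfected transcripts together, took 0.0230 to 0.0346% of the counts in control libraries. The share rose to between 2.80 and 7.35% in gag-pol libraries, 3.78 and 6.10% in gag libraries and 0.238 and 0.389% in NC libraries. The PEG10 inserts differ in length and that of NC is the shortest, so these shares do not compare numbers of transcripts between constructs. All 7 HEK293 markers checked passed the filter on low counts, and their summed level was 931 to 1130 CPM (counts scaled to the library total) in control, 1190 to 1240 CPM in gag-pol, 1040 to 1080 CPM in gag and 1160 to 1460 CPM in NC libraries. The 4 markers of mature neurons and glia also all passed the filter. They summed to 24.3 to 38.8 CPM in control, 38.0 to 46.0 CPM in gag-pol, 30.0 to 40.6 CPM in gag and 32.4 to 42.4 CPM in NC libraries. The endothelial markers *CDH5* and *TEK*, the leukocyte markers *PTPRC* and *CD3E* and the fibroblast markers *DCN* and *LUM* were below the filter. Other markers of these cell types passed it: endothelial *PECAM1*, *VWF* and *CLDN5* at up to 2.79 CPM, leukocyte *CD68* at 12.3 to 22.7 CPM and fibroblast *COL1A1* at 15.9 to 42.9 CPM. The HEK293 markers were *PAX2*, *KRT8*, *KRT18*, *VIM*, *LIN28B* and the neural-lineage *NEFL* and *NEFM*, so their sum is not a measure of kidney identity alone. Over all libraries *NEFL* ranged from 83.4 to 311 CPM and *VIM* from 414 to 687 CPM, against 260 to 312 CPM for *KRT8*. The HEK293 sum of gag-pol and NC libraries lay above that of all control libraries, while the neuron and glia sum overlapped between groups. The part of these differences in the results below was not tested.

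Promoter sequences are shown for members whose gag-pol and NC libraries were both above gag and control within every replicate number, so that genes with this shared pattern can be set side by side. They are the 250 bases before the RefSeq start in GRCh38.p14, in sense orientation, with capitals marking the GC box (GGGCGG) and the CCAAT box on either strand. The window of *SLIT1* is chr10:97185960-97186209 (reverse strand), that of *SLIT3* chr5:169301140-169301389 (reverse strand), that of *ROBO1* chr3:79767999-79768248 (reverse strand), that of *EPHA8* chr1:22563239-22563488 (forward strand) and that of *EFNB1* chrX:68828771-68829020 (forward strand). Of the other genes with this pattern, *UNC5B* had no promoter in the set used, and the letters of *UNC5A* are not printed. The *UNC5A* window was 81.2% GC with 36 CG dinucleotides, 4 GC boxes and no CCAAT box.
SLIT1: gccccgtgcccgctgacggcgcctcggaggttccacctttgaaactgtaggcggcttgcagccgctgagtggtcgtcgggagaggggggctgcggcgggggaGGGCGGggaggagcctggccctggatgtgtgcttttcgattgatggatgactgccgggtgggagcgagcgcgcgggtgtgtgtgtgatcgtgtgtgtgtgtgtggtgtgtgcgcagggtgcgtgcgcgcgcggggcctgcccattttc
SLIT3: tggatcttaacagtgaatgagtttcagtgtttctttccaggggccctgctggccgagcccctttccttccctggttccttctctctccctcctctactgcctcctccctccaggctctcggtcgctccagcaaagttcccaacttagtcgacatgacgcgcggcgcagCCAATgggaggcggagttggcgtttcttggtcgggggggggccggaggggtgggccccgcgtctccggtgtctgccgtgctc
ROBO1: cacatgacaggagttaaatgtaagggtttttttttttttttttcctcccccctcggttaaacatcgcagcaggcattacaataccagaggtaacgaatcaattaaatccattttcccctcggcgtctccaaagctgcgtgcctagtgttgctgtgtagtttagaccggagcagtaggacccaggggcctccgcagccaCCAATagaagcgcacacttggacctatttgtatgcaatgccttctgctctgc
EPHA8: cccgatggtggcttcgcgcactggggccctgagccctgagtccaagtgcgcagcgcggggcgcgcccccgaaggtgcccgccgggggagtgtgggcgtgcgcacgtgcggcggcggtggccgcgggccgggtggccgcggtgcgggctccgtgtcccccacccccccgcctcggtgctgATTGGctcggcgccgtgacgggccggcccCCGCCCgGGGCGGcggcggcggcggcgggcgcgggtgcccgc
EFNB1: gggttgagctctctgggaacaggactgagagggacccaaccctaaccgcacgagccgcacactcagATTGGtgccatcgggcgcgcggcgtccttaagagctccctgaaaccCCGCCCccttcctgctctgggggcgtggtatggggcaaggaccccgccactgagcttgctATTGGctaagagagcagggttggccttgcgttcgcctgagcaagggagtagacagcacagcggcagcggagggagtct

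These windows differed from each other in base composition and motifs. That of *EPHA8* was 83.2% GC with 42 CG dinucleotides, 2 GC boxes and 1 CCAAT box, and that of *ROBO1* was 48% GC with 9 CG dinucleotides, no GC box and 1 CCAAT box. *SLIT1* had 1 GC box and no CCAAT box, *SLIT3* had no GC box and 1 CCAAT box, and *EFNB1* had 1 GC box and 2 CCAAT boxes. No GC box overlapped a CCAAT box. Of the 41 genes, 34 had a RefSeq promoter, with a median GC content of 66.6% against 58.0% over all 27305 promoters and a median of 18 CG dinucleotides against 11. A GC box was present in 26 of the 34 and in 42.3% of all promoters, and a CCAAT box in 14 of the 34 and in 33.0% of all. The TATA box (TATAAA, either strand) was found only in *EFNB2* among the 34, against 11.1% of all promoters, and the E-box CACGTG only in *EPHA8*, against 6.49% of all. A match is a description of the letters in this window and not evidence that a factor binds there.

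HEK293 cells carried transcripts of most of these genes. Of the 41, 36 passed the filter on low counts and were tested. The other 5 were close to absent: *DCC*, the attractive netrin receptor, had 0 to 2 counts per library (8 in all 12), the endothelial Robo *ROBO4* 0 to 3 (5 in all), *UNC5D* 0 to 2 (6 in all), *NTNG1*, a membrane-anchored netrin-G, 0 to 8 (35 in all) and *EPHA1* 0 to 12 (51 in all). These 5 were not tested. *EPHA1*, named after its values were seen, had normalized counts of 3.11, 0.887 and 3.23 in control, 6.04, 10.7 and 10.3 with gag-pol, 2.42, 5.88 and 4.12 with gag and 0, 0 and 3.31 with NC, so that the gag-pol libraries were the highest at very low counts.

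The Slit, Robo, netrin and Eph families were each carried mainly by 1 or a few members. On the scale of normalized counts per kilobase of exon, averaged over the 12 libraries, *SLIT2* made up 84.1% of the Slit level (80.2 to 88.5% over libraries), *ROBO1* 74.2% of the Robo level and *NTN1* 66.4% of the netrin level. For a normalized count, the raw count was divided by its library's TMM-scaled total and brought to the average library size. Among netrin receptors *NEO1*, which encodes neogenin, held 48% and *UNC5B* 44%. Their levels were 868 ± 142 and 804 ± 193 per kilobase (SD, n = 12). These SDs span all constructs and replicate numbers, so they are not a spread between replicates. Per kilobase of the canonical transcript the levels were 993 and 804. The difference between the genes was not tested.

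*EPHA2* led the EphA receptors with 64.7% and a level of 1150 ± 254 per kilobase, and *EPHB4* the EphB receptors with 75.9% and 933 ± 69.5 per kilobase (SD, n = 12). Ephrins were more evenly shared. *EFNA3* held 33.8%, *EFNA5* 24.1% and *EFNA1* 22.7% of the ephrin-A level, and *EFNB2* 44.5%, *EFNB1* 38.9% and *EFNB3* 16.6% of the ephrin-B level. Of the exon bases of *EFNA3*, 43.9% are shared with the readthrough gene *EFNA4-EFNA3*, and 36.4% of those of *EFNB2* lie opposite an antisense lncRNA. Neither overlapping gene has a row in the count table, whose strand setting is not given in the sources used here. The values of *EFNA3* and *EFNB2* are therefore uncertain to an extent that was not tested. The lowest tested members were *EPHA6* at 1.32 ± 0.560, *NTN5* at 11.3 ± 4.97 and *EPHA5* at 13.6 ± 2.57 per kilobase (SD, n = 12).

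**Figure D1:**
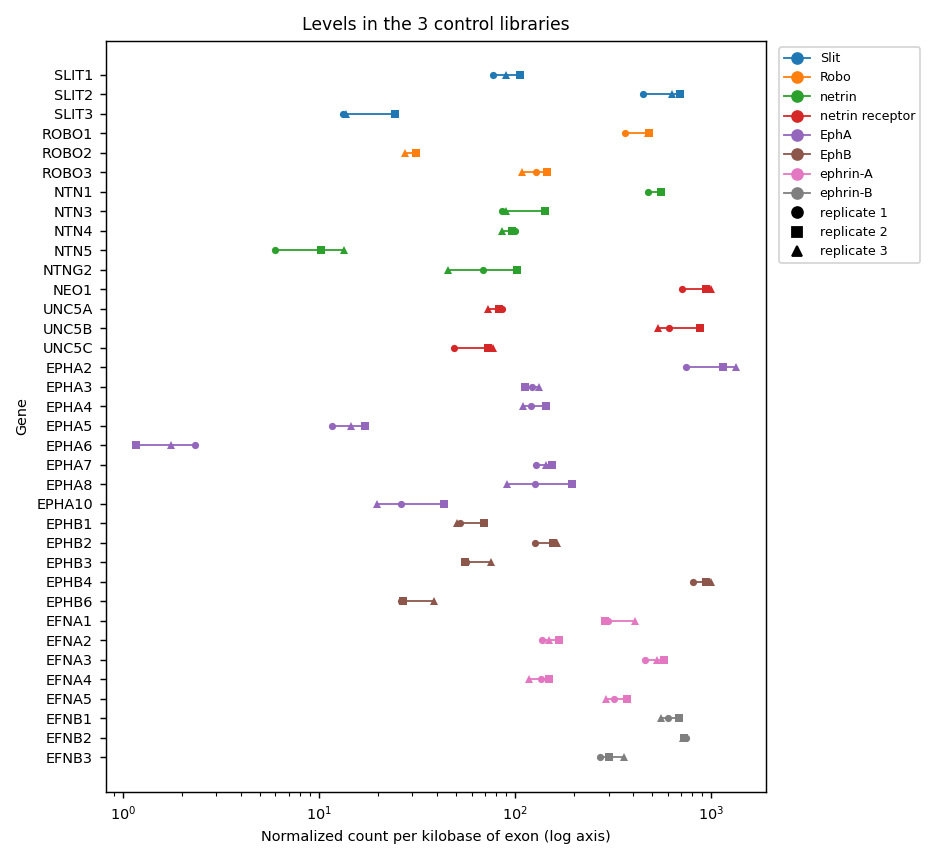
Level of the 36 tested genes in the 3 control libraries, as normalized counts per kilobase of exon on a log axis, with lines from the lowest to the highest library and symbols for the replicate number. *SLIT2*, *ROBO1*, *NTN1*, *NEO1*, *UNC5B*, *EPHA2* and *EPHB4* lie to the right of the rest of their families, while the ephrins lie closer together.

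Compared with control, gag-pol and NC each changed a handful of these genes, mostly upward. With gag-pol, *SLIT3*, *UNC5B*, *EPHA8* and *EFNB1* rose and *UNC5C* fell. With NC, *SLIT3*, *UNC5B*, *EPHA8* and *ROBO2* rose. A gene is said to rise, fall or be called where its p-value from the quasi-likelihood test of edgeR, adjusted by the Benjamini-Hochberg method over all 17176 genes tested, was under 0.05. In these bulk samples, a change in the number of cells that express a gene and a change in the RNA per cell cannot be told apart.

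Of 36 members, 4 rose with gag-pol, where 5.48% of all genes tested rose, and 1 fell, where 5.83% of all fell. With NC 4 rose, against 6.04% of all genes, and 0 fell, against 5.15%. With gag 0 rose and 0 fell, against 0.699% and 0.384% of all genes. In that comparison 8 members, of which 7 were lower, had an unadjusted p under 0.05 in edgeR. Over all 17176 genes tested 2347 did, 1305 of them higher. DESeq2 also called 0 members with gag. DESeq2 called 5 members with gag-pol and 9 with NC, the latter including the 4 called by edgeR. The percentages above are those of edgeR. The DESeq2 shares over all genes are not given here, so its counts with gag-pol and NC have no background beside them. The median log2 fold change of the 36 was 0.11 for gag-pol, -0.10 for gag and 0.10 for NC, where the median over all genes lay at -0.0014, 0.0027 and 0.0040. Positive values were found for 25 of 36 members for gag-pol, 10 for gag and 25 for NC. The 3 comparisons share their control libraries.

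**Figure D2:**
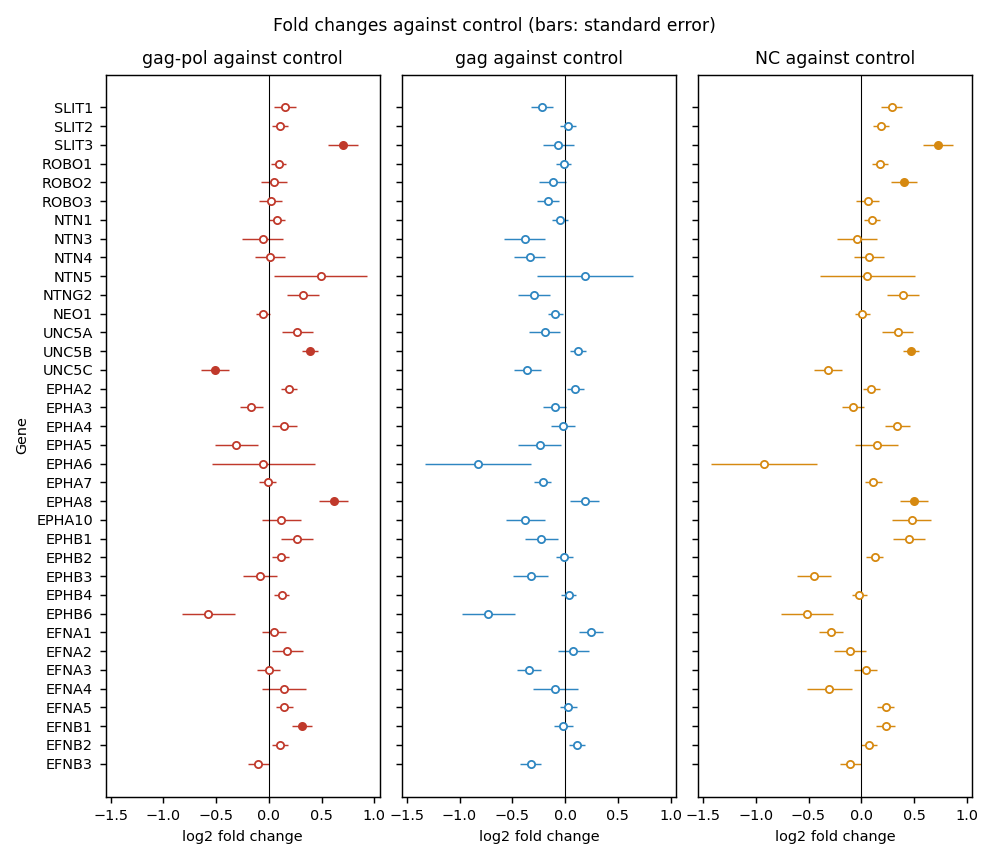
Log2 fold change of the 36 tested genes against control for the 3 PEG10 constructs, with bars for the standard error and filled points for genes called at an adjusted p under 0.05. Filled points number 5 for gag-pol, 0 for gag and 4 for NC, with *SLIT3*, *UNC5B* and *EPHA8* filled in the gag-pol and NC panels.

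Of the Slit ligands, *SLIT3* (ENSG00000184347, chr5:168661740-169301139 on the reverse strand of GRCh38) had the largest rise of any member with gag-pol and with NC. Its normalized counts in replicates 1, 2 and 3 were 190, 347 and 196 in control, 297, 518 and 366 with gag-pol, 164, 316 and 218 with gag and 304.5, 543 and 358 with NC. The groups overlapped, since replicate 2 was highest in each, but within every replicate number both gag-pol and NC were above both control and gag. On the log2 scale the change was 0.70 with gag-pol (SE 0.14, adjusted p = 0.0037), 0.73 with NC (SE 0.14, adjusted p = 0.0038) and -0.06 with gag (SE 0.15, adjusted p = 0.90) in edgeR's quasi-likelihood test. Both calls were kept in all 12 fits that each left out 1 library. *SLIT3* held 2.95% of the Slit level per kilobase, so it was the least abundant Slit before and after the change.

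The main Slit, *SLIT2*, was not called against control. Its normalized counts were 4959, 7692 and 7028 in control, 5074, 8398 and 7831 with gag-pol, 5323, 7368 and 7246 with gag and 5717, 7952 and 8675 with NC. All 4 groups overlapped, and replicate 1 was the lowest library of each. The log2 fold changes were 0.11 with gag-pol (95% interval -0.05 to 0.26), 0.03 with gag (-0.13 to 0.18) and 0.19 with NC (0.03 to 0.34, adjusted p = 0.11 in edgeR). The summed Slit level per kilobase was 701 ± 147 in control, 770 ± 180 for gag-pol, 695 ± 121 for gag and 811 ± 145 for NC (SD, n = 3), and these sums were not tested. Each of the 3 Slits was higher with gag-pol and with NC than in control in all 3 replicate numbers.

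Among the Slit receptors, *ROBO2* (ENSG00000185008, chr3:75906695-77649964, forward strand) rose with NC. It had 516, 518 and 458 normalized counts in control, 458, 609 and 489 with gag-pol, 417, 535 and 430.1 with gag and 619, 839 and 548 with NC. The 3 NC libraries were above all control and gag libraries. The log2 fold change with NC was 0.41 (SE 0.12, adjusted p = 0.036 in edgeR) and with gag-pol 0.05 (SE 0.12, adjusted p = 0.83). The NC call was lost without control replicate 2 or 3 or NC replicate 1 or 2, with adjusted p up to 0.20. NC minus gag-pol was 0.36 (95% interval 0.10 to 0.61, adjusted p = 0.31), so the 2 constructs were not shown to differ.

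Among netrin receptors, *UNC5B* (ENSG00000107731, chr10:71212570-71302864, forward strand), a repulsive receptor that is also known from vessels, rose with both constructs. Normalized counts of *UNC5B* were 4187, 5996 and 3666 in control, 4925, 7508 and 5605 with gag-pol, 4278, 6294 and 4436 with gag and 5282, 7975 and 5818 with NC. Libraries of different replicate numbers overlapped between groups, and within each number the order was the same, with control lowest, gag next, gag-pol above it and NC highest. On the log2 scale the change was 0.39 with gag-pol (SE 0.08, adjusted p = 0.0030), 0.47 with NC (SE 0.08, adjusted p = 0.0011) and 0.12 with gag (SE 0.08, adjusted p = 0.53) in edgeR's test. The gag-pol call and the NC call were both kept when any 1 library was left out. *UNC5B* was also among the most abundant members, unlike *SLIT3*.

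*UNC5C* (ENSG00000182168, chr4:95162504-95549206, reverse strand), a related repulsive receptor, went the other way. It had 524, 782 and 826 normalized counts in control, 422, 500.5 and 559.7 with gag-pol, 378, 568 and 736 with gag and 515, 514 and 665.5 with NC. In every replicate number the control library was the highest of the 4. *UNC5C* fell by 0.51 on the log2 scale with gag-pol (SE 0.13, adjusted p = 0.014 in edgeR), and the values for gag and NC were -0.36 (adjusted p = 0.21) and -0.31 (adjusted p = 0.12). The gag-pol call was lost without control replicate 2 or gag-pol replicate 3, with adjusted p up to 0.093. The most abundant netrin receptor, *NEO1*, had 5797, 7679 and 8166 in control, 5523, 7334 and 8010 with gag-pol, 5437, 6699 and 8254 with gag and 5863, 7320 and 8630 with NC. Its groups overlapped throughout, with log2 fold changes of -0.05 (95% interval -0.20 to 0.09), -0.09 (-0.24 to 0.05) and 0.01 (-0.14 to 0.15) for gag-pol, gag and NC.

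Of the netrins, none was called against control. *NTN1*, the main netrin, had normalized counts of 3069, 3578 and 3561 in control, 2945, 3723 and 4186 with gag-pol, 2702, 3513 and 3757 with gag and 3055, 3964 and 4017 with NC, which overlapped in all groups. The log2 value of *NTN1* against control was 0.08 with gag-pol (95% interval -0.08 to 0.23), -0.05 with gag (-0.20 to 0.11) and 0.10 with NC (-0.05 to 0.26).

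In the Eph family, *EPHA8* (ENSG00000070886, chr1:22563489-22603595, forward strand) rose with gag-pol and with NC. It had normalized counts of 684, 1066 and 492 in control, 1026, 1163 and 1098 with gag-pol, 823, 1065 and 626 with gag and 944, 1253 and 898 with NC. The spread was wide in control and narrow with gag-pol, and control replicate 2 lay inside the gag-pol and NC ranges. On the log2 scale the change was 0.61 with gag-pol (SE 0.14, adjusted p = 0.0067), 0.50 with NC (SE 0.14, adjusted p = 0.023) and 0.19 with gag (SE 0.14, adjusted p = 0.61) in edgeR. The gag-pol call was lost without control replicate 3 or gag-pol replicate 3 (adjusted p up to 0.056), and the NC call without control replicate 1 or 3 or NC replicate 1 or 3 (up to 0.17).

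The leading Eph receptors moved little with the constructs. *EPHA2* had 3077, 4753 and 5559 in control, 3848, 5628 and 5606 with gag-pol, 3290, 5214 and 5794 with gag and 3372, 5656 and 5195 with NC, as normalized counts. *EPHB4*, the vein-associated partner of ephrin-B2, had 5182, 6035 and 6395 in control, 6048, 6398 and 6654 with gag-pol, 5639, 5892 and 6452 with gag and 5344, 5940 and 6079 with NC. All groups overlapped for both genes. The log2 fold change of *EPHA2* with gag-pol was 0.19 (95% interval 0.03 to 0.35, adjusted p = 0.11 in edgeR), and that of *EPHB4* was 0.12 (-0.02 to 0.26, adjusted p = 0.27).

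Among the ephrins, *EFNB1* (ENSG00000090776, chrX:68829021-68842160, forward strand), the transmembrane ligand mutated in craniofrontonasal syndrome, rose with gag-pol. Its normalized counts were 1990, 2263 and 1840 in control, 2530, 2782 and 2256 with gag-pol, 1956, 2197 and 1863 with gag and 2156, 3178 and 1912 with NC. The gag-pol libraries lay above all gag libraries and overlapped control by a narrow margin, while NC spread from within the control range to well above it. On the log2 scale the change was 0.31 with gag-pol (SE 0.09, adjusted p = 0.028) and 0.23 with NC (SE 0.09, adjusted p = 0.11) in edgeR. The gag-pol call was lost without any 1 of the control replicates or without gag-pol replicate 1 or 3 (adjusted p up to 0.13). *EFNB2*, the most abundant ephrin-B, had 3716, 3626 and 3601 in control, 4151, 3961 and 3707 with gag-pol, 4374, 3763 and 3707 with gag and 4023, 4046 and 3441 with NC. Its log2 fold changes of 0.11, 0.11 and 0.07 were not called, with adjusted p of 0.37, 0.56 and 0.59.

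**Figure D3:**
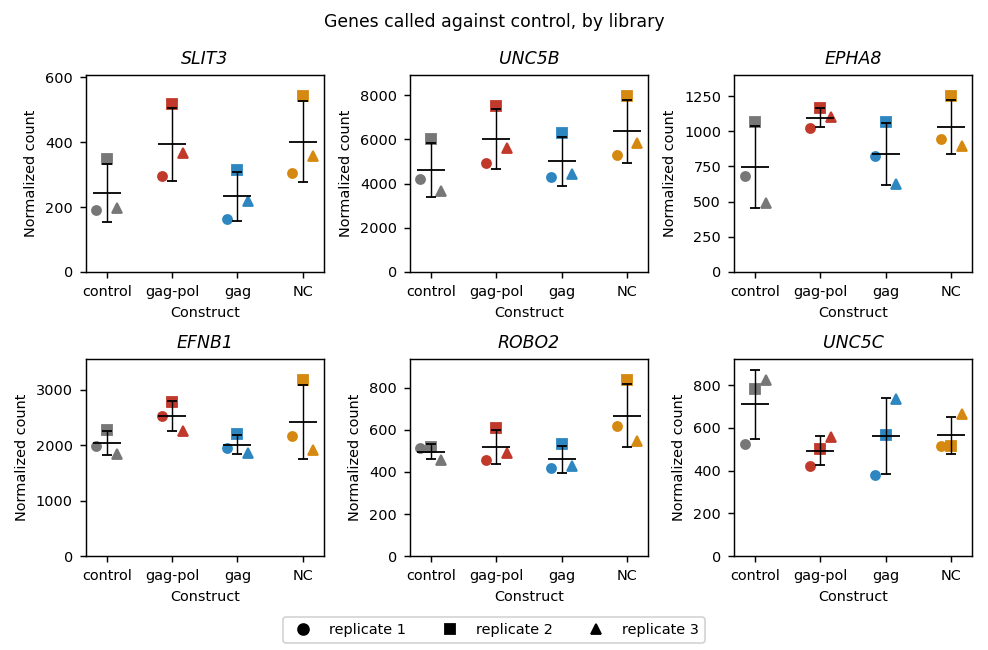
Normalized counts per library of the 6 genes called against control, with symbols for the replicate number and black bars for mean ± SD of 3 libraries per construct. Replicate 2 is the highest library of *SLIT3* and *UNC5B* in every group, and within each number gag-pol and NC lie above control and gag for *SLIT3*, *UNC5B*, *EPHA8* and *EFNB1*.

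When the constructs were compared with each other, NC differed from gag in more members than any construct did from control. NC was higher than gag for 11 of 36 members, where 8.76% of all genes were higher, and lower for 1, where 8.12% were lower. Gag-pol was higher than gag for 5 members, against 3.03% of all genes, and lower for 0, against 3.42%. DESeq2 called 9 members in that comparison, and its share over all genes is not given here. NC and gag-pol were not distinguished for any member. Of the 36, 0 were higher and 0 lower, against 0.00582% and 0.0815% of all genes, and DESeq2 called 0. An unadjusted p under 0.05 in edgeR was found for 5 members, where 1704 of all 17176 genes tested had one. The median log2 difference of the members was 0.22 for NC against gag and 0.19 for gag-pol against gag, with medians over all genes of -0.0057 and -0.014. The test of any difference among the 4 constructs called 14 of the 36, where 20.6% of all genes were called.

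*SLIT3* and *UNC5B* were again among the members that separated the constructs. *SLIT3* was higher than with gag by 0.77 with gag-pol (SE 0.14, adjusted p = 0.0051) and by 0.79 with NC (SE 0.14, adjusted p = 0.0013) in edgeR, and *UNC5B* by 0.27 (SE 0.08, adjusted p = 0.040) and 0.35 (SE 0.08, adjusted p = 0.0045) on the log2 scale. Leaving out 1 library kept all of these but the gag-pol value of *UNC5B*, which was lost in 8 of 12 such fits. They were those without control replicate 2, without any 1 of the gag-pol or gag replicates, or without NC replicate 1 (adjusted p up to 0.25). *ROBO2* was higher with NC than with gag by 0.53 (SE 0.13, adjusted p = 0.0066), a call lost without gag replicate 1 (0.052). *EFNB1* was higher with gag-pol than with gag by 0.33 (SE 0.09, adjusted p = 0.032), lost without gag-pol replicate 1 or 3 or any 1 gag replicate (up to 0.17).

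*SLIT1* (ENSG00000187122, chr10:96998038-97185959, reverse strand), a Slit best known from the brain, was lowest with gag. It had 703, 966 and 821 normalized counts in control, 812, 1093 and 863 with gag-pol, 607, 914 and 636 with gag and 974, 1144 and 908 with NC. In every replicate number gag was the lowest and NC the highest library of *SLIT1*. The difference from gag was 0.50 for NC (SE 0.10, adjusted p = 0.0028) and 0.37 for gag-pol (SE 0.10, adjusted p = 0.035) in edgeR, and against control *SLIT1* had values of 0.29 with NC (adjusted p = 0.072) and -0.22 with gag (adjusted p = 0.36). The gag-pol call against gag was lost without any 1 gag-pol replicate or without gag replicate 1 or 3 (up to 0.18).

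*NTNG2* (ENSG00000196358, chr9:132162058-132244526, forward strand), a membrane-anchored netrin-G that binds postsynaptic adhesion proteins and not DCC, was also lowest with gag in 2 of the 3 replicate numbers. Its normalized counts were 346, 517 and 230.1 in control, 446, 487 and 386 with gag-pol, 255, 383 and 238 with gag and 445, 539.5 and 411 with NC. Gag-pol and NC did not overlap gag, whereas control spanned from below gag to above gag-pol. The difference from gag was 0.62 for gag-pol (SE 0.16, adjusted p = 0.020) and 0.69 for NC (SE 0.16, adjusted p = 0.0048) in edgeR. The gag-pol call was lost without gag-pol replicate 1 or 3 or any 1 gag replicate (up to 0.14).

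*UNC5A* (ENSG00000113763, chr5:176810519-176880898, forward strand), another netrin receptor of the UNC5 type, was higher with NC than with gag by 0.54 (SE 0.15, adjusted p = 0.015 in edgeR). It had 373, 358 and 313 normalized counts in control, 415, 434 and 401 with gag-pol, 323, 352 and 244 with gag and 554, 445.5 and 338 with NC. Gag-pol libraries were above all control and gag libraries, with a difference from gag of 0.46 that just missed the threshold (adjusted p = 0.059). The NC call was lost without gag replicate 1 or 3 or NC replicate 1 (up to 0.14).

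Of the Eph receptors, *EPHA4*, *EPHA7*, *EPHA10* and *EPHB1* were higher with NC than with gag. *EPHA10*, a receptor that lacks kinase activity, had 215, 356 and 161 normalized counts in control, 271, 352 and 168.5 with gag-pol, 222, 277 and 86.4 with gag and 405, 387 and 214 with NC, a difference between NC and gag of 0.85 (SE 0.18, adjusted p = 0.0038 in edgeR). *EPHB1* had 306, 405 and 297 in control, 296, 457.5 and 481 with gag-pol, 221, 354 and 301.5 with gag and 309, 546 and 559.7 with NC, a difference of 0.67 (SE 0.16, adjusted p = 0.0056). For both genes NC exceeded gag in all 3 replicate numbers although the groups overlapped.

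*EPHA7* had 2097, 2549 and 2358 normalized counts in control, 1861, 2542 and 2594 with gag-pol, 1731, 2115 and 2223 with gag and 2123, 2693 and 2806 with NC, and differed between NC and gag by 0.33 (SE 0.08, adjusted p = 0.0082 in edgeR). *EPHA4*, which binds ephrins of both classes, had 906, 1082 and 830.0 in control, 792, 1345 and 1015 with gag-pol, 948, 1105 and 737 with gag and 1024, 1364 and 1183 with NC, and differed by 0.36 (SE 0.12, adjusted p = 0.036). The groups of both genes overlapped, with NC above gag in all 3 replicate numbers. The *EPHA4* call was lost without gag replicate 2 or 3 or NC replicate 1 or 3 (up to 0.23).

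Of the ephrin-As, *EFNA3* was higher and *EFNA1* lower with NC than with gag. *EFNA1*, an *EPHA2* ligand, had 645, 625 and 883 normalized counts in control, 679, 626 and 918 with gag-pol, 662.5, 744 and 1194 with gag and 449, 565 and 765 with NC. NC was the lowest library of *EFNA1* in every replicate number, and the difference from gag was -0.53 (SE 0.12, adjusted p = 0.0037 in edgeR), kept when any 1 library was left out. *EFNA3* had 899, 1113 and 1032 in control, 994, 943 and 1100 with gag-pol, 633.5, 788 and 1009 with gag and 952, 999.9 and 1194 with NC. Gag was the lowest library of *EFNA3* in every number, with a difference between NC and gag of 0.38 (SE 0.11, adjusted p = 0.021), lost without gag replicate 1 or 2 or NC replicate 1 or 3 (up to 0.18).

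The mean of gag-pol and NC was then compared with the mean of gag and control, a contrast that uses all 12 libraries. Members were higher in 14 cases, against 13.1% of all genes, and lower in 1, against 11.6%. The higher genes included 2 Slits, 2 Robos, *NTNG2*, 2 *UNC5* receptors, 4 EphA receptors, *EPHB1* and 2 ephrins, and the lower gene was *EFNA1*. The median difference of the 36 was 0.14 on the log2 scale, with 28 of them positive, and that of all genes was -0.0067, with 48.6% positive. This contrast reuses the libraries of the comparisons above and adds no samples. From these same libraries, the study had reported its largest gene group as raised by gag-pol and NC and not by gag. The pairing of constructs is therefore not independent of that reported pattern.

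*SLIT3* differed most, by 0.75 (SE 0.10, adjusted p = 5.2e-05 in edgeR), and *UNC5B* by 0.37 (SE 0.05, adjusted p = 0.00010). Values between 0.40 and 0.51 were found for *NTNG2*, *EPHA10*, *EPHB1*, *EPHA8* and *UNC5A*, and those of *SLIT1*, *ROBO2* and *EFNB1* were 0.33, 0.29 and 0.28. The difference of *EFNA1* was -0.24 (SE 0.08, adjusted p = 0.030). When any 1 library was left out, the calls of *SLIT3*, *UNC5B*, *NTNG2*, *EPHA10*, *EPHB1*, *EPHA8*, *UNC5A*, *SLIT1* and *EFNB1* were kept in all 12 fits. The other calls depended on single libraries, with adjusted p up to 0.14. That of *ROBO2* was lost without control replicate 2, gag-pol replicate 3, gag replicate 1 or NC replicate 2, and that of *EPHA4* without replicate 2 or 3 of control, gag-pol or gag or replicate 3 of NC. *EFNA1* kept its call only without control replicate 3, gag-pol replicate 1, gag replicate 1 or NC replicate 2, and *EFNA5* only without replicate 1 of control or gag-pol or replicate 1 or 2 of NC. *EPHA7* kept its call only without replicate 1 of control or gag-pol, and *ROBO1* only without gag replicate 3 or NC replicate 2.

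*ROBO1* and *EFNA5* were called only in this contrast. *ROBO1* (ENSG00000169855, chr3:78597239-79767998, reverse strand), the main Slit receptor here, had 4033, 5296 and 5283 normalized counts in control, 4157, 5791 and 5694 with gag-pol, 3857, 5093 and 5590 with gag and 4756, 5643 and 6076 with NC. Within each replicate number the gag-pol and NC libraries of *ROBO1* were the top ones, by a difference of 0.14 (SE 0.05, adjusted p = 0.045 in edgeR). *EFNA5*, a ligand used in topographic mapping of axons, had 1831, 2126 and 1671 in control, 1827, 2383 and 2036 with gag-pol, 1745, 2160 and 1847 with gag and 1925, 2518 and 2175 with NC, a difference of 0.17 (SE 0.06, adjusted p = 0.030). Both groups of values overlapped between constructs when replicate numbers were mixed.

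Within every replicate number, gag-pol and NC were both above gag and control for 7 members, *EFNB1*, *EPHA8*, *ROBO1*, *SLIT1*, *SLIT3*, *UNC5A* and *UNC5B*, against 7.37% of all genes. They were both below for 0 members, against 5.78% of all genes.

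**Figure D4:**
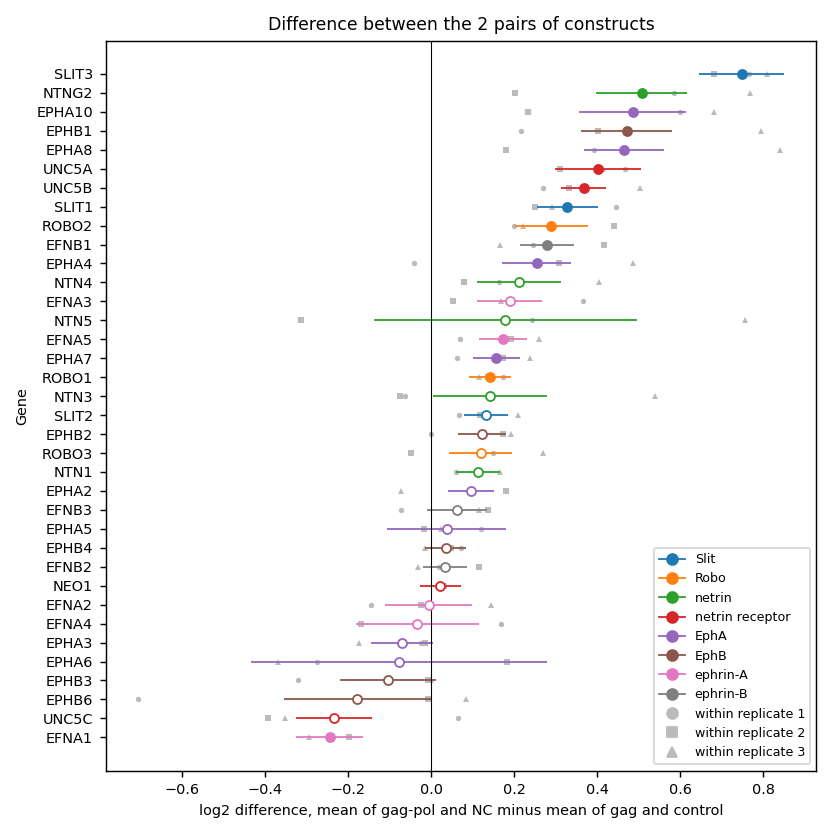
Difference between the mean of gag-pol and NC and the mean of gag and control for the 36 tested genes, on the log2 scale, with bars for the standard error, filled points for genes called and gray symbols for the difference within each replicate number. The values run from -0.24 for *EFNA1* to 0.75 for *SLIT3*, and the 3 gray symbols of *SLIT3* lie close together.

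Most of these genes varied more between replicate numbers than between constructs. The study modelled the harvest date, which is not given for single libraries. Replicate number, taken here to stand for culture passage and harvest, was used in its place. The test of any difference among replicate numbers called 29 of 36 members, where 52.8% of all genes were called. The range between the 3 replicate-number means exceeded the range between the 4 construct means in 25 of 36 members. Each replicate-number mean held 4 libraries and each construct mean 3, so the 2 ranges are not built alike. Replicate 1 had the lowest mean in 26 of the 36, and the highest mean fell on replicate 1, 2 or 3 in 3, 16 and 17. The counts of ranges and of lowest and highest means were not made over all genes. They are therefore not shown to be particular to these members.

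*EPHA2* differed most firmly, with means over the 4 constructs of 3396, 5313 and 5539 normalized counts in replicates 1, 2 and 3 (adjusted p = 8.3e-08 in edgeR). *SLIT2* had 5268, 7852 and 7695 (adjusted p = 4.4e-07), *UNC5B* 4668, 6943 and 4881 (5.3e-07) and *NEO1* 5655, 7258 and 8265 (1.2e-06). The abundant members *EPHA2*, *SLIT2* and *NEO1* thus differed between replicate numbers while none of them was called between constructs. *EPHA10* had the widest range of replicate means, with 278, 343 and 157.5, or 1.18 on the log2 scale. Without the replicate number as a term, 0 members were called in every construct comparison.

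**Figure D5:**
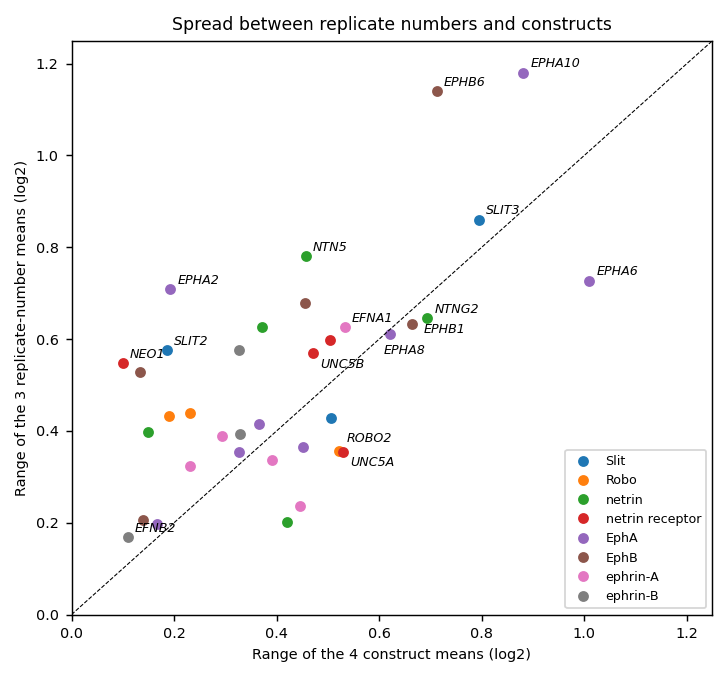
For each of the 36 tested genes, the range of the 4 construct means (x axis) and the range of the 3 replicate-number means (y axis), both on the log2 scale, with the dashed line marking equality. The 25 genes above the line varied more between replicate numbers than between constructs, with *EPHA2*, *SLIT2* and *NEO1* far to the left.

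Other genes of these pathways were read from a list of 69 partners (coreceptors, adaptors and effectors), of which 65 were tested and *DSCAM*, *FLRT2*, *LRRC4C* and *ARHGEF15* were below the filter. With gag-pol 7 of the 65 rose, where 5.48% of all genes did, and 3 fell, against 5.83%. With NC 3 rose and 2 fell, against 6.04% and 5.15% of all genes, and with gag 1 rose and 0 fell, against 0.699% and 0.384%. The list was made with earlier results of these data known, possibly those of *SH2D3C*, the partner that rose with gag. The counts of partners are therefore a description and cannot test the pathways. *NGEF*, an exchange factor that binds EphA receptors, rose by 0.66 with gag-pol (SE 0.11, adjusted p = 0.00067) and by 0.60 with NC (SE 0.11, adjusted p = 0.0021) on the log2 scale in edgeR. *SRGAP3*, a GTPase-activating protein of the Slit-Robo pathway, fell by 0.51 with gag-pol (adjusted p = 0.018) and fell by 0.42 with NC (adjusted p = 0.049). *INPPL1*, which encodes the phosphatase SHIP2 that binds EPHA2, fell by 0.32 with gag-pol (adjusted p = 0.0073) and fell by 0.27 with NC (adjusted p = 0.022).

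The other partners named by size were *SH2D3C*, an Eph-binding adaptor, which rose by 1.30 with gag-pol (SE 0.14, adjusted p = 5.2e-05) and by 1.21 with gag (SE 0.14, adjusted p = 0.00027). With NC its value was 0.31 (SE 0.14, adjusted p = 0.16). *LRRC4*, a netrin-G ligand, rose by 0.62 with gag-pol (adjusted p = 0.031), and *PICK1*, a PDZ protein that binds ephrin-Bs and Ephs, fell by 0.29 (adjusted p = 0.041). With NC their values were 0.40 and -0.27 (adjusted p of 0.16 and 0.058). *GPC1*, a heparan sulfate proteoglycan that binds Slits, rose by 0.39 with NC (adjusted p = 0.012) and by 0.31 with gag-pol (adjusted p = 0.034). *GRB10*, an Eph-binding adaptor, rose by 0.33 with NC (adjusted p = 0.011) and had a value of 0.14 with gag-pol (adjusted p = 0.27). In the contrast of gag-pol and NC with gag and control, 14 of the 65 partners were higher and 5 lower, against 13.1% and 11.6% of all genes.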

How the data were processed

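HEK293 cells were profiled in 12 poly(A) RNA-seq libraries, 3 for each of 4 constructs. The authors mapped the read pairs to GRCh38.p13 with STAR 2.7.3 and counted them per gene with SAMtools 1.8 and featureCounts, and the deposited values are these raw counts. The annotation release, strand setting and handling of multimapping reads are not given in the sources used here. Of the counts from 1 to 20, 61.0 to 64.7% were even in each library, so mates may have been counted separately.

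Counts were analyzed in R 4.3.3 with the packages edgeR 4.0.16 and limma 3.58.1 (TMM factors from 0.94 to 1.06, minimum count 10, minimum total count 15). The quasi-likelihood model held construct and replicate number over all 12 libraries, with 6 residual degrees of freedom and 17176 genes. P-values were adjusted over all genes (Benjamini-Hochberg, threshold 0.05). Replicates are separate samples in the labels, but separate cultures are not stated there. A figure legend of the study calls them biological replicates. P-values then rest on the spread between these samples that is left after construct and replicate number are fitted. After removal of construct means, the 18 library pairs with the same number correlated at 0.14 to 0.54. The 36 pairs that differed in both number and construct correlated at -0.50 to 0.072. Pairs within a construct were left out. The alternatives were DESeq2 1.42.0, RLE factors, no filter, no replicate term, each library left out and, chosen after seeing the data, halved counts. The scripts were tested on simulated data.

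Exon lengths and positions are from GENCODE 44 (GRCh38) and promoters from RefSeq. The members and lists were chosen with earlier results of these data known. Values per library are given for members called in any construct comparison and for the member with the highest level per kilobase in each family, and partners are named as the 3 largest rises and 3 largest falls called against control. Figures were drawn with Python 3.11.15, pandas 2.3.3 and matplotlib 3.10.9.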

Additional observations from a re-analysis of the deposited data

How the results depend on the processing

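Without the replicate number as a block, 0 members were called for gag-pol against control, NC against control, gag-pol against gag, NC against gag, any construct difference and the contrast of both gag-pol and NC with both gag and control, and 0 to 3 genes were called in the whole table. DESeq2 called 9 members for NC against control and 9 for gag-pol against gag, and the fit without the filter called 9 for gag-pol against gag. The shares over all genes of these alternative fits are not given for these comparisons, nor are those of the fits without 1 library below. Their counts of members therefore describe the fits and are not a result about these members. When each library was left out in turn, the number of members called ran from 2 to 5 for gag-pol against control, 0 to 0 for gag against control, 2 to 6 for NC against control, 1 to 9 for gag-pol against gag, 9 to 14 for NC against gag, 0 to 0 for NC against gag-pol, 8 to 13 for any construct difference, 9 to 14 for that contrast and 25 to 29 for replicate numbers. The lowest of these came without gag-pol replicate 3 (gag-pol against control), without control replicate 3 or NC replicate 1 (NC against control) and without gag-pol replicate 1 or 3 or gag replicate 1 (gag-pol against gag). Without the filter, the calls of *EPHA7* and *ROBO1* in that contrast were lost. RLE factors and halved counts left every number of members called as it was, and no named value changed sign. Over the whole table, gag against control gave 186 genes, but 443 with DESeq2 and 373 without the filter, and NC against gag-pol gave 15, 124 and 129. With 3 replicates per construct, members at low counts such as *EPHA6* and *NTN5* had wide errors.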
